A study of Mus musculus with 2 samples.

Results

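The mitochondrial ribosomal protein genes are the nuclear genes for the protein parts of the ribosome that works inside mitochondria. All symbols that begin with Mrpl or Mrps followed by a digit, pseudogene names excluded, were taken from the count tables of 2 mouse T helper 17 (Th17) cell libraries. This gave 76 of 15574 listed genes, with 47 Mrpl symbols (named for the large subunit) and 29 Mrps symbols (named for the small subunit). All 76 had reads in both libraries and all passed a mean of 1 CPM, the unit of reads scaled to library size used here, while 73 passed 10 CPM. No symbol had to be left out as a pseudogene.

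Both libraries came from naive T cells of C57BL/6 mice that spent 6 days in a Th17-inducing mix of IL6, TGFb, IL1b and IL23, followed by 4 h on plate-bound CD3 stimulation. One library carries the genotype label CREB KO, a loss of the cyclic AMP-responsive transcription factor CREB, and the other is wildtype. The labels name neither the allele nor the number of animals. The study looked for genes that CREB regulates in Th17 cells.

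Mitochondrial ribosomes translate the few proteins still encoded by mitochondrial DNA, all of them parts of the respiratory chain and ATP synthase. Their RNA is made inside the organelle, but every one of their proteins is imported from the cytosol. Many of these proteins have bacterial relatives, and the others are specific to mitochondria. The large subunit joins amino acids and threads the new chain towards the inner membrane, and the small subunit reads the messenger RNA. Activated T cells build up mitochondria and depend on mitochondrial translation for respiration.

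The library labelled knockout held 23.9 M counted reads and the wildtype library 26.5 M (M, mega). With 1 library per genotype there is no replicate error and no p-value, so each difference lies between 2 libraries. Ratios are given as knockout over wildtype with exact conditional binomial 95% intervals. They cover counting error only, since PCR copies of one molecule are not independent. Creb1 itself had 25 reads in the CREB KO-labelled library and 13 in the wildtype library (ratio 2.08, 1.04 to 4.51). At a mean of 0.77 CPM it lay under the 1 CPM filter. Reads this few do not show the loss that the label names, and they cannot settle whether it holds. All ratios therefore compare libraries by their labels. The Th17 cytokine genes Il17a and Il17f had 6981 and 13041 reads in the CREB KO-labelled library, against 13093 and 39898. Of 8 markers of other cells 4 had any read, with at most 26 in a library, and Cd8a, Lyz2, Itgam and Ncr1 had no reads listed. In bulk RNA, fewer cells of a type and less RNA per cell cannot be told apart.

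The mitoribosomal genes took the same share of reads in both libraries. Together they had 117416 reads in the CREB KO-labelled library, or 0.490% of the total (exact binomial 95% interval 0.488 to 0.493). The wildtype library had 130037, also 0.490% (0.488 to 0.493). After scaling, the summed ratio over all 76 genes was 0.995 (0.987 to 1.003). The median log2 ratio of the 76 was -0.0074, beside -0.0076 over all 10462 genes that passed 1 CPM.

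The summed ratios of large and small subunit genes were both near 1. The 47 large-subunit genes had 77246 reads in the CREB KO-labelled library and 85761 in the wildtype library, a summed ratio of 0.993 (0.983 to 1.002). For the 29 small-subunit genes the reads were 40170 and 44276 and the ratio was 0.99997 (0.987 to 1.014). Large-subunit reads made up 65.8% of all member reads in the CREB KO-labelled library (65.5 to 66.1) and 66.0% in the wildtype library (65.7 to 66.2). The large ratio divided by the small ratio was 0.993 (0.976 to 1.009), which does not depend on scaling and whose interval includes 1. Median log2 ratios were -0.02 for the large and 0.0059 for the small subunit.

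Name and structure differ for 3 of these genes. In the assembled particle the proteins of Mrps30 and Mrps18a belong to the large subunit, and the Mrps36 product is a part of the alpha-ketoglutarate dehydrogenase complex. Sorting by structure gave 49 large and 26 small members with summed ratios of 0.994 (0.985 to 1.004) and 0.998 (0.984 to 1.012), and a ratio of ratios of 0.996 (0.980 to 1.014). Mrps30 had 1751 reads in the CREB KO-labelled library and 1862 in the wildtype library, with a ratio of 1.04 (0.970 to 1.11). Mrps36 had 480 and 534, with a ratio of 0.991 (0.874 to 1.12). Neither of these intervals excludes 1.

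No member was 1.5-fold apart between the libraries with an interval that excludes 1, and none was 1.2-fold apart by the same rule. Over all genes past 1 CPM, 2.48% were 1.5-fold higher by this rule and 1.5% were 1.5-fold lower. At 1.2-fold these shares were 6.19% and 5.48%. Intervals lay above 1 for 10 of the 76 members, against 16.2% of all genes, and below 1 for another 10, against 19.5%. Among the 5050 genes in the level range of the 73 members past 10 CPM, 17.2% had intervals above 1 and 22.9% below, and 93.4% lay within 1.2-fold. All 73 members lay within that limit, and their log2 ratios had an SD of 0.10, against 0.15 for the 5050 genes and a median counting SD of 0.05.

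**Figure D1:**
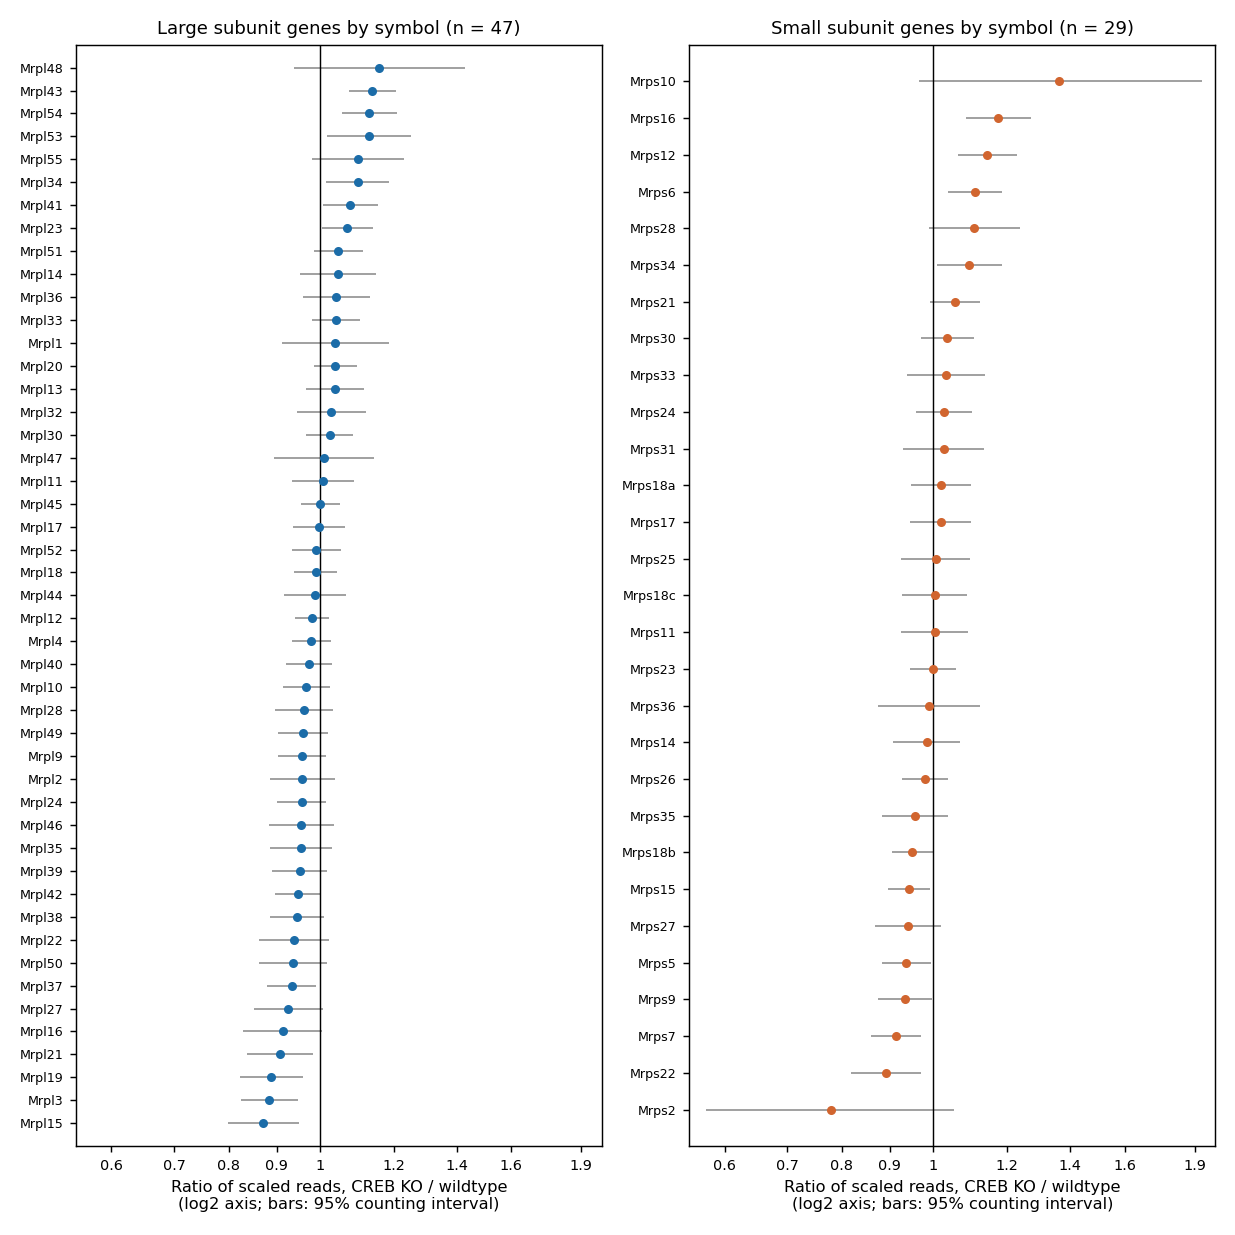
Each point is the ratio of scaled reads, CREB KO over wildtype (log2 axis), of one gene, with its 95% counting interval, for 47 large-subunit genes on the left and 29 small-subunit genes on the right, by symbol. Most intervals cross 1, and the widest belong to Mrps2 and Mrps10, which have about 100 reads or fewer.

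In the large subunit, the 5 highest ratios past 10 CPM were those of Mrpl43, Mrpl54, Mrpl53, Mrpl55 and Mrpl34. Mrpl43 (chromosome 19, 45004829 to 45006442, GRCm38) had 2427 reads in the CREB KO-labelled library and 2351 in the wildtype library, a ratio of 1.14 (1.07 to 1.205). Its exons overlap those of Twnk, the gene of the mitochondrial DNA helicase, and how reads in the shared bases were counted is not known here. Mrpl54 (chromosome 10, 81264713 to 81266934) had 1772 and 1729 reads, with a ratio of 1.13 (1.06 to 1.21). Mrpl53 (chromosome 6, 83109040 to 83109939) had 747 and 729, with a ratio of 1.13 (1.02 to 1.252). Its exons overlap those of Ccdc142os and Gm42688. Mrpl43, Mrpl54 and Mrpl53 code for proteins without a bacterial relative. Mrpl34, which has one, had 1329 and 1334 reads and a ratio of 1.098 (1.02 to 1.19). Mrpl55 had 613 and 615 reads, and its interval includes 1 (ratio 1.099, 0.981 to 1.23). Mrpl41, with 1710 and 1748 reads, also had an interval above 1 (ratio 1.08, 1.01 to 1.15).

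The 5 lowest large-subunit ratios were those of Mrpl15, Mrpl3, Mrpl19, Mrpl21 and Mrpl16, all of the bacterial-type class, which holds 30 of the 49 genes of the large subunit in structure. Mrpl15 (chromosome 1, 4773206 to 4785739) had 934 reads in the CREB KO-labelled library and 1182 in the wildtype library, and was 1.15-fold lower (1.05 to 1.252). Mrpl3 (chromosome 9, 105053239 to 105079888), whose bacterial relative reaches towards the peptidyl transferase centre, had 1454 and 1813 reads and was 1.13-fold lower (1.06 to 1.21). Mrpl19 had 1181 and 1465 reads and was 1.13-fold lower (1.04 to 1.22). Mrpl21 had 1101 and 1338 reads and was 1.103-fold lower (1.02 to 1.195). Mrpl16 (chromosome 19, 11770391 to 11774960), whose bacterial relative contacts tRNA, had 768 and 927 reads, and its interval includes 1 (ratio 0.913, 0.829 to 1.006). Mrpl37, which is specific to mitochondria, had 1995 and 2355 reads and was 1.07-fold lower (1.01 to 1.14). The exons of Mrpl19 overlap those of Gcfc2, and the exons of Mrpl21 those of Ighmbp2.

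Small-subunit log2 ratios past 10 CPM ran from -0.17 to 0.23, and those of the large subunit from -0.20 to 0.19. Mrps16 (chromosome 14, 20389304 to 20393634) had 1284 reads in the CREB KO-labelled library and 1205 in the wildtype library, the highest ratio of the 73 members past 10 CPM at 1.17 (1.08 to 1.27). Mrps12 (chromosome 7, 28739641 to 28741820), which encodes a protein of the decoding centre, had 1536 and 1482 reads and a ratio of 1.14 (1.06 to 1.23). Mrps6 had 1752 and 1741 reads and a ratio of 1.11 (1.04 to 1.19), with exons that overlap Slc5a3. Mrps34 had 1225 and 1235 reads and a ratio of 1.09 (1.01 to 1.18). Mrps28 had 635 and 632 reads, and its interval includes 1 (ratio 1.11, 0.990 to 1.24). All of these have near-equal raw reads in 2 libraries of unequal depth.

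The lowest small-subunit ratio past 10 CPM was that of Mrps22 (chromosome 9, 98588730 to 98601660), a mitochondria-specific protein. It had 968 reads in the CREB KO-labelled library and 1198 in the wildtype library and was 1.12-fold lower (1.03 to 1.22). Mrps7, a protein of the subunit head, had 1893 and 2283 reads and was 1.09-fold lower (1.03 to 1.16), with exons that overlap Gga3 and Mif4gd. Mrps9 had 1611 and 1902 reads and was 1.07-fold lower (1.002 to 1.15). Mrps5, whose bacterial relative lines the messenger RNA entry, had 2061 and 2424 reads and was 1.07-fold lower (1.01 to 1.13). Mrps27 had 1095 and 1283 reads, with an interval that includes 1 (ratio 0.941, 0.867 to 1.02) and exons that overlap another gene. Mrps15, one of the most abundant, had 2689 and 3143 reads and was 1.06-fold lower (1.01 to 1.12).

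The ratios ordered by the length of the coding sequence, a measure the name rule did not use. Among the 73 members past 10 CPM, the 25 with at most 480 coding bases had a median log2 ratio of 0.06, and 19 of them had a ratio above 1. The 24 members of middle length had a median of -0.0020, with 11 above 1. The 24 longer than 756 bases had a median of -0.07, with 4 above 1. Across the 73 genes Spearman's rho between coding length and log2 ratio was -0.61 and Pearson's r with log2 length was -0.57. The genes share the same 2 libraries and their depth, and are not independent replicates. The rho was -0.62 over the 46 large-subunit and -0.53 over the 27 small-subunit members. This relation was looked for after the ratios had been seen.

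The members with intervals off 1 are taken from the same ratios, so their order by length repeats this relation and is not a separate observation. The 10 members above 1 had coding lengths from 276 to 654 bases (median 405), and the 10 below 1 had 648 to 1296 (median 964.5). Only Mrps34 above 1, with 654 bases, and Mrpl21 below 1, with 648, met in the middle. With the merged length of all exons, untranslated parts included, the rho over the 73 members was weaker at -0.34.

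**Figure D2:**
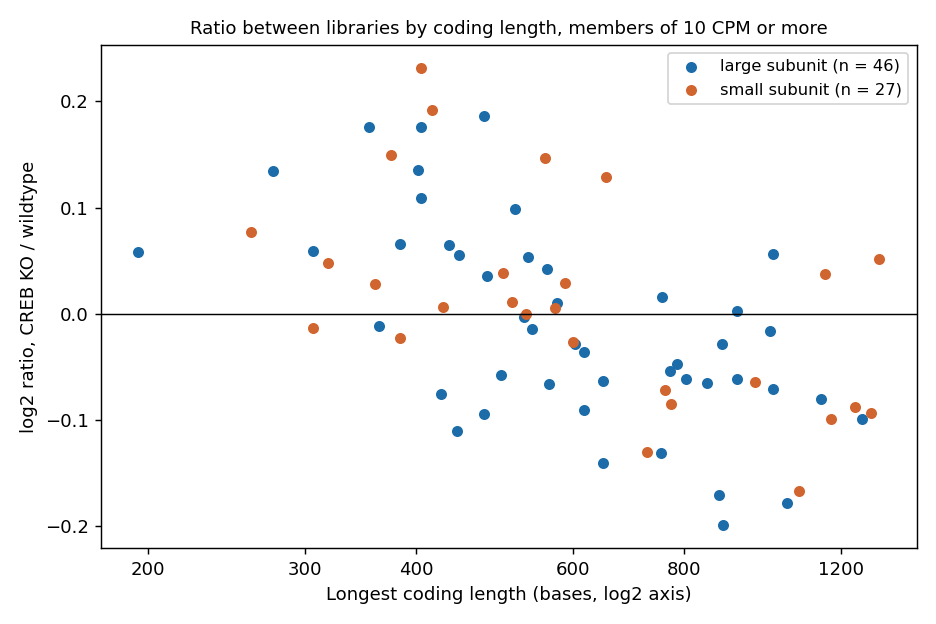
Log2 ratio of CREB KO over wildtype against longest coding length (log2 axis) for the 73 members of 10 CPM or more, coloured by subunit. Points of both colours run from above 0 at the short end to below 0 at the long end.

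Over all genes the short ones also had a median above 0, by a smaller amount, and rank by length and ratio were unrelated. Of 7089 genes past 10 CPM with a coding length, the 640 of at most 480 bases had a median log2 ratio of 0.03, with 390 above 1. The 971 of middle length had a median of -0.01 and the 5478 longer ones -0.02. Over all of these genes rho was 0.0027. In the 77 cytosolic ribosomal protein genes past 10 CPM rho was -0.53, and in the 72 nuclear-encoded respiratory chain genes -0.51. No test was made of the difference between these sets, and the cause of the order by length was not tested.

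Levels of different genes were compared only per length, as CPM per kilobase of merged exons. By this measure the large-subunit median was 50.1 in the CREB KO-labelled library and 49.4 in the wildtype library, above the small-subunit medians of 33.7 and 30.5. The interquartile ranges of the 2 subunits overlapped, from 25.3 to 80.1 and from 20.8 to 55.6 in the CREB KO-labelled library. Per kilobase of coding sequence the medians were 95.9 and 104 for the large subunit and 96.1 and 94.2 for the small one, so the gap was narrower in both libraries. Sorted by structure, the small-subunit medians per coding length were the higher ones, at 109 and 109 against 95.9 and 99.9. Among members with 1 curated transcript the large-subunit medians were higher, at 125 and 127 against 72.1 and 71.0. The size and direction of the level difference per coding length thus changed with the grouping.

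**Figure D3:**
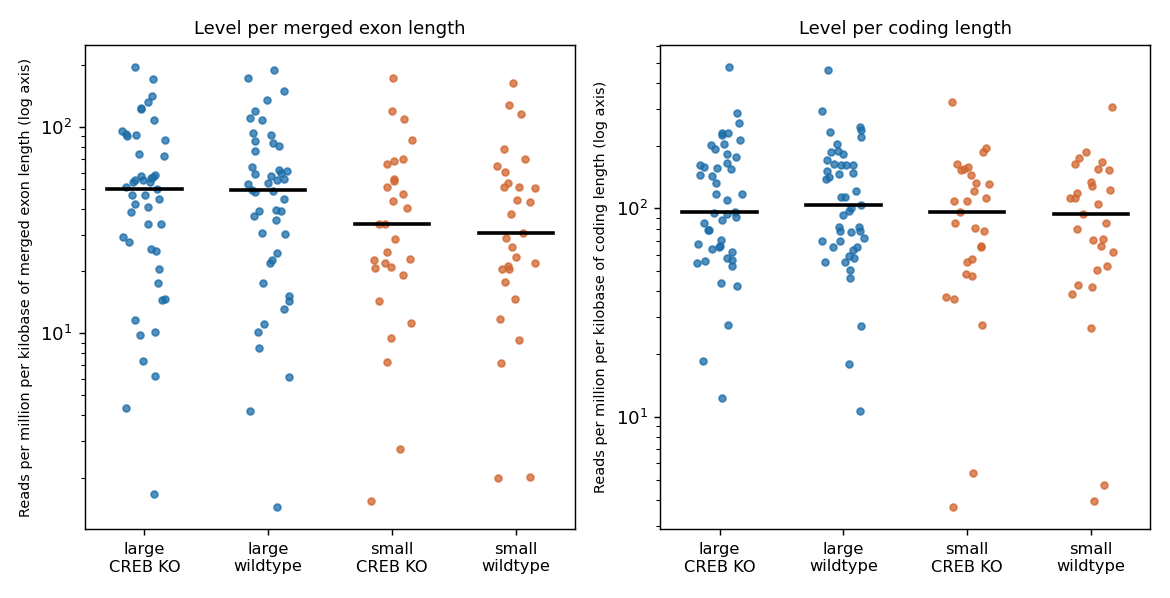
Each point is one gene's level (CPM per kilobase, log axis) per merged exon length on the left and per coding length on the right, by subunit and library, with black bars at the medians. The large-subunit median is higher on the left, 50.1 against 33.7 in CREB KO, and 95.9 against 96.1 in CREB KO on the right.

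Among large-subunit genes the highest levels per kilobase of merged exons belonged to Mrpl33, Mrpl52, Mrpl42 and Mrpl12. Mrpl33 reached 195 in the CREB KO-labelled library and 188 in the wildtype library, and Mrpl52 reached 170 and 171. Mrpl42 was at 141 and 148. Mrpl12, the factor-binding stalk protein that is present in several copies per ribosome, was at 132 and 135 and had the most reads of any member, 4171 and 4688. At the low end stood Mrpl48 at 1.66 and 1.43, Mrpl1 at 4.36 and 4.19, Mrpl47 at 6.18 and 6.11, and Mrpl15 at 7.36 and 8.45. Each of these genes has annotated exons several times longer than its coding sequence. Per coding length Mrpl48, at 12.3 and 10.6, Mrpl1, at 18.6 and 17.9, and Mrpl47, at 27.5 and 27.2, were still the lowest of the large subunit, and Mrpl15 stood at 44.0 and 50.5.

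Small-subunit levels spanned a similar range. Mrps21 was highest at 171 in the CREB KO-labelled library and 162 in the wildtype library. Mrps15 followed at 120 and 127, Mrps18b at 109 and 115, and Mrps6 at 86.3 and 77.8. The lowest were Mrps2 at 1.54 and 1.98 and Mrps10 at 2.75 and 2.01, with Mrps25 at 7.22 and 7.17 and Mrps17 at 9.48 and 9.30 above them. Per coding length Mrps17 stood at 158 and 155 and Mrps25 at 85.5 and 84.9, among the other members, while Mrps2 and Mrps10 stayed lowest at 3.67 and 4.72, and 5.39 and 3.95. Across the 76 genes log2 CPM correlated between the libraries with a Pearson r of 0.994.

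The 3 members under 10 CPM were Mrps2, Mrps10 and Mrpl48, and their ratios cannot be told from 1. Mrps2 (chromosome 2, 28468066 to 28471178) had 77 reads in the CREB KO-labelled library and 109 in the wildtype library, a ratio of 0.780 (0.574 to 1.05). Mrps10 (chromosome 17, 47368887 to 47381417) had 78 and 63, a ratio of 1.36 (0.967 to 1.93). Mrpl48 had 187 and 178, a ratio of 1.16 (0.938 to 1.43). They have 2, 3 and 7 curated RefSeq transcripts, whereas 50 of the 76 members have 1. The 26 members with several transcripts had a median of 1224 reads in the CREB KO-labelled library, against 1558 for the 50 others. Per kilobase of merged exons the medians in this library were 31.4 and 46.9, but per kilobase of coding sequence they were 94.6 and 96.0. Whether reads shared by several transcripts were dropped was not tested.

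Members were also grouped by the place of their proteins in the particle, in fixed lists that need not hold every protein of a region. In the factor-binding stalk, which recruits the translation factors, Mrpl10 had a ratio of 0.968 (0.914 to 1.03), Mrpl11 of 1.01 (0.934 to 1.09) and Mrpl12 of 0.981 (0.940 to 1.02). Of the 5 genes around the polypeptide exit tunnel, Mrpl23 alone had an interval above 1, with 1998 and 2057 reads and a ratio of 1.07 (1.006 to 1.14). Mrpl45, which ties the ribosome to the inner membrane, had 3136 and 3450 reads and a ratio of 1.002 (0.954 to 1.05). Of the 6 genes listed for the central protuberance, 5 had a ratio below 1 and Mrpl48 had one of 1.16. No single interval among these 6 excluded 1 (median log2 ratio -0.05). Their summed reads were 9014 and 10256, with a ratio of 0.969 (0.942 to 0.997). The upper bound is close to 1, and this sum was not recomputed under the other scalings.

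Bacterial-type and mitochondria-specific proteins lay close together in both subunits. The median log2 ratio was -0.02 over 30 bacterial-type and -0.01 over 19 mitochondria-specific genes of the large subunit. In the small subunit it was 0.02 over 16 and -0.01 over 10. The summed ratio of the 30 bacterial-type large-subunit genes was 0.986 (0.974 to 0.999), and the intervals of the other 3 classes included 1. The upper bound of 0.999 is close to 1, and the class sums were not recomputed under the other scalings. Scaling by total counts moved the summed ratio of all large-subunit genes by symbol from 0.993 to 0.998, so this class cannot be set apart from the others. Intervals lay above 1 for 2 and below 1 for 4 of the 30, above for 4 and below for 1 of the 19, above for 3 and below for 4 of the 16, and above for 1 and below for 1 of the 10. Over all genes past 1 CPM the shares were 16.2% above and 19.5% below.

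The S18 paralogs share a bacterial ancestor but hold different places, Mrps18a in the large and Mrps18b and Mrps18c in the small subunit. In the classes above, Mrps18c was counted as bacterial-type and the other two as mitochondria-specific. Mrps18b (chromosome 17, 35910379 to 35916389) had the most reads, 2835 in the CREB KO-labelled library and 3285 in the wildtype library, with a ratio of 0.951 (0.904 to 1.001). Mrps18a (chromosome 17, 46110986 to 46128910) had 1356 and 1465, with a ratio of 1.02 (0.947 to 1.099). Mrps18c (chromosome 5, 100798627 to 100804471) had 1157 and 1270, with a ratio of 1.004 (0.926 to 1.09). Per kilobase of coding sequence their levels in the CREB KO-labelled library were 155, 96.1 and 112, in the order b, a, c.

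Since the study asks about CREB, the promoters were searched for its binding motif, the cyclic AMP response element (CRE). RefSeq windows (GRCm38.p6) from 250 bases before to 50 after the start were at hand for 67 of the 76 genes. The full element, TGACGTCA, which reads the same on both strands, was found in 2 of the 67 genes (2.99%), against 3.45% of 11486 genes with reads and a window. These 2 are shown because they are the members in which the CREB motif is complete, with the element in capitals.
Mrpl16, chr19:11770315-11770389, plus strand: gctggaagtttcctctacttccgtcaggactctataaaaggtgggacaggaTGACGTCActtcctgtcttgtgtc
Mrpl49, chr19:6057891-6057920, minus strand: cctgctgcgtgTGACGTCActgcagcgcga
The Mrpl49 element lies within an annotated exon of its divergent neighbour Fau. Mrpl16 had the ratio of 0.913 given above, and Mrpl49 had 1969 and 2259 reads and a ratio of 0.961 (0.904 to 1.02). Both ratios are below 1 and both intervals include 1. The shorter core TGACG, on either strand and counted also inside full elements, was in 43.3% of the 67 genes and 33.0% of the 11486. The 28 members past 10 CPM with the core had a median log2 ratio of 0.0051, and the 36 without had -0.02.

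Motifs of housekeeping promoters were also counted, on both strands. The ETS-type motif CCGGAAG was in 24 of the 67 genes (35.8%), against 17.4% of the 11486. AAGATGGCG, bound by YY1, was in 11.9% against 3.03%, and the palindromic motif of NRF1 in 4.48% against 2.07%. The TATA-type motif TATAAA was in 7.46% against 9.57%. These shares are descriptions and were not tested. Among members past 10 CPM, the 23 with the ETS-type motif had a median log2 ratio of -0.00050 and the 41 without had -0.02. The motif was found at both ends of the range of ratios and in the middle, as the bases just before the start of 4 members show, with the motif or its reverse complement in capitals.
Mrps22, chr9:98601680-98601759, minus strand: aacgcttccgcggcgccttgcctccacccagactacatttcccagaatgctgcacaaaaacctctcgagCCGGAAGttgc
Mrpl52, chr14:54426829-54426908, plus strand: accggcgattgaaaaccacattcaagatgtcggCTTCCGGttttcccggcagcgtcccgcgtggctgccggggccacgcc
Mrpl34, chr8:71464846-71464925, plus strand: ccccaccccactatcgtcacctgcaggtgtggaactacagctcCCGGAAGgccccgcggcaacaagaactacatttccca
Mrpl43, chr19:45006443-45006522, minus strand: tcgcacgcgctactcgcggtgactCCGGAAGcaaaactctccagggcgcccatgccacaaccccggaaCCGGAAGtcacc
Their ratios were 0.891, 0.992, 1.098 and 1.14, in this order. Mrpl43 holds the motif at 2 places of the stretch shown. Mrpl52 holds another copy just after the start, outside the stretch shown.

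Mitoribosomal proteins named outside the Mrpl and Mrps series had ratios in the same range. Of 7 such genes none was 1.5-fold apart. Intervals lay above 1 for 2 and below for 1, beside 16.2% and 19.5% of all genes past 1 CPM. Chchd1, a small-subunit protein, had 1047 reads in the CREB KO-labelled library and 1010 in the wildtype library, a ratio of 1.14 (1.05 to 1.247). Gadd45gip1, a large-subunit protein, had 2818 and 2945 reads and a ratio of 1.05 (1.001 to 1.11). Ptcd3, a small-subunit protein with RNA-binding repeats, had 1932 and 2290 reads and a ratio of 0.930 (0.875 to 0.988). Intervals included 1 for Dap3 (500 and 539 reads, ratio 1.02), Aurkaip1 (2446 and 2722, 0.990), Mrp63 (1409 and 1453, 1.07) and Ict1 (1395 and 1560, 0.986). The last 2 are now named Mrpl57 and Mrpl58.

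None of the genes past 1 CPM that build the mitoribosome or work with it was 1.5-fold apart. Their lists have fewer reads per gene than the members, with a median mean level of 25.2 CPM for assembly and 16.7 CPM for translation factors, against 58.2 CPM. Of 23 genes for assembly and ribosomal RNA modification, 3 had an interval above 1 and 3 below (median log2 ratio 0.02). Over all genes past 1 CPM these shares were 16.2% and 19.5%. Nsun4, which methylates mitochondrial ribosomal RNA and helps to join the subunits, had 865 reads in the CREB KO-labelled library and 795 in the wildtype library, a ratio of 1.199 (1.09 to 1.32). Mettl17, a small-subunit assembly factor, had 898 and 1234 reads and a ratio of 0.802 (0.735 to 0.875). Ftsj2, now Mrm2, a methyltransferase of the large-subunit RNA, had 305 and 430 reads and a ratio of 0.782 (0.673 to 0.907). These ratios lie outside the range of the 73 members past 10 CPM. The other intervals off 1 were those of Eral1 (ratio 1.18), Mettl15 (1.27, under 10 CPM) and Mterfd1 (0.898).

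Of 11 translation factor genes past 1 CPM, 1 had an interval above 1 and 4 below (median -0.04), beside 16.2% and 19.5% of all genes. Their summed reads were 8852 and 10625, with a ratio of 0.918 (0.893 to 0.945) over all 13 listed. Oxa1l and Gfm1 had the most reads of these genes and weigh most in the sum. The release factor gene Mtrf1l had 259 reads in the CREB KO-labelled library and 407 in the wildtype library, a ratio of 0.702 (0.598 to 0.822). Gfm1, the elongation factor that moves the ribosome along, had 1752 and 2264 reads and a ratio of 0.853 (0.801 to 0.908). Taco1, an activator of cytochrome oxidase translation, had 455 and 435 reads and a ratio of 1.15 (1.01 to 1.32). Oxa1l, which inserts new proteins into the inner membrane, had 3121 and 3839 reads and a ratio of 0.896, and Mrrf, the ribosome recycling factor, had a ratio of 0.899. Mtif2 and Mtif3 were under 1 CPM, with at most 16 reads in a library. Of 10 genes for mitochondrial transcription and RNA stability past 1 CPM, 1 had an interval off 1 (median -0.02). It was Lrpprc, which protects mitochondrial messenger RNA, with 1728 and 2339 reads and a ratio of 0.814 (0.765 to 0.867). Slirp, its binding partner, had 817 and 840 reads and a ratio of 1.07 (0.972 to 1.18), and Tfb2m, a transcription factor of mitochondrial DNA, had 1303 and 1539 reads and a ratio of 0.933 (0.866 to 1.005). Mitochondrially encoded RNAs were not analysed here.

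The cytosolic ribosome and the respiratory chain offer a scale for these values. Past 10 CPM, 77 cytosolic ribosomal protein genes had a median log2 ratio of 0.04 and 72 nuclear-encoded respiratory chain genes also 0.04, beside -0.01 for the 73 mitoribosomal genes. Their shares of all reads were 14.6% and 1.38% in the CREB KO-labelled library, and 14.1% and 1.36% in the wildtype library. Past 1 CPM, intervals lay above 1 for 48 and below for 5 of 81 cytosolic genes. For the 79 respiratory chain genes they lay above for 31 and below for 8. Over all genes past 1 CPM the shares were 16.2% above and 19.5% below. Such counts also depend on reads per gene. Coding length differs between the sets too. Past 10 CPM, 43 of 77 cytosolic and 43 of 72 respiratory chain genes had at most 480 coding bases, against 25 of 73 members. Median log2 ratios of these short genes were 0.07, 0.06 and 0.06, in this order. For genes of middle length they were 0.03, 0.06 and -0.0020, and for those longer than 756 bases 0.0071, -0.04 and -0.07. The differences between these sets were not tested.

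**Figure D4:**
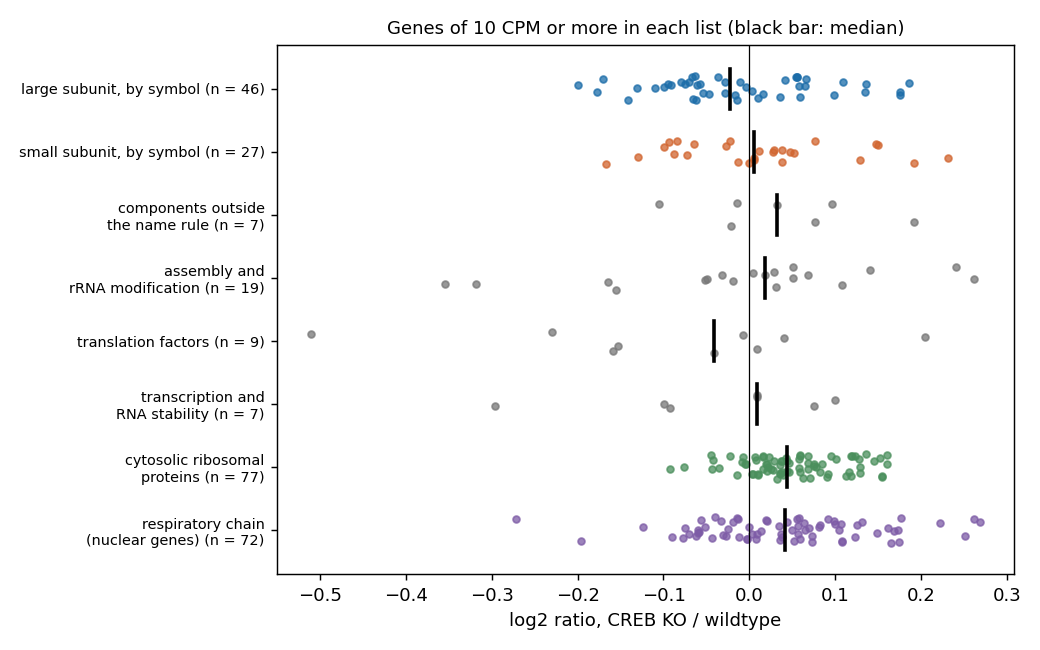
Log2 ratios of CREB KO over wildtype for genes of 10 CPM or more in the mitoribosomal subunits, the other lists of the pathway and both comparison sets, with black bars at the medians. The members lie between -0.20 and 0.23, and the lowest value shown is that of Mtrf1l at -0.51.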

How the data were processed

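Messenger RNA of 2 libraries was analysed, 1 per genotype. The deposited files hold whole-number counts of uniquely assigned reads per gene symbol, per the file headers, with no normalization. Tools named in the submitters' processing notes are HTSeq and bcl2fastq, with build mm10. The sources used here give no aligner, annotation or strand setting, so reads of overlapping genes cannot be told apart. Genes listed in one file only were taken as 0 in the other, and the totals were 23.9 M and 26.5 M reads.

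CPM used TMM-scaled library sizes (edgeR 4.0.16, R 4.3.3) and ratios were formed with a prior count of 0.5 scaled to depth. No quasi-likelihood test could be fitted with 1 library per group. Intervals are exact conditional binomial (Clopper-Pearson, 95%). A gene counted as apart at 1.5-fold with an interval that excludes 1, and the filter was a mean of 1 CPM. Steps were tested on simulated data. Lengths and positions come from GENCODE M21 basic protein-coding transcripts (GRCm38), which gave a model for all 76 members. Transcript numbers and promoters come from RefSeq (GRCm38.p6). Python 3.11.15, numpy 2.4.6, scipy 1.17.1, pandas 2.3.3 and matplotlib 3.10.9 were used.

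Genes named are members with the 5 highest and 5 lowest ratios per subunit past 10 CPM, the 4 highest and 4 lowest levels per length, any under 1 CPM or 1.5-fold apart, 10 fixed members, and up to 3 per other list. Mrpl23, Mrpl37, Mrpl41, Mrpl49, the other intervals off 1 in the pathway lists and the 3 members under 10 CPM were also described after their values were seen, as were the motifs and the relation with coding length. Members and lists were chosen with earlier results of these data known. Alternatives were scaling by total counts, DESeq2 1.42.0 size factors or upper quartiles, thinning of the deeper library, other filters, a prior count of 5, a 1.2-fold rule, coding length, subunits by structure and genes with 1 transcript.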

Additional observations from a re-analysis of the deposited data

How the results depend on the processing

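Of 113 summary values recomputed under alternatives, 103 stayed within a set margin of the main value. The margin was the counting interval for sums and shares, and 1.5 times for counts. For medians it was the counting error of a single typical gene, which is wide for a median. The counts of genes 1.5-fold apart were 0 throughout, so the number that stayed is only a description. None of the 76 members was 1.5-fold apart under any scaling, filter, prior count or thinning tried, nor at 1.2-fold with the main settings. Members with 1 curated transcript gave a summed ratio of 1.003 for the large and 0.983 for the small subunit, and a ratio of ratios of 1.02, so the subunit with the higher ratio changed. The small-subunit median log2 ratio went from 0.0059 to -0.01 there, inside the wide margin for medians. This alternative drops 26 members. Median levels in the CREB KO-labelled library moved to 95.9 (large) and 96.1 (small) per coding length, and in the wildtype library to 104 and 94.2. With 1 curated transcript the wildtype medians were 53.3 and 34.2, and by structure the small-subunit wildtype median was 34.2. Of 205 values of the 41 named members, all lay within their main intervals, and 1 changed side of 1 (Mrps36 under thinning). The median log2 ratio of all genes past 1 CPM lay between -0.0085 and 4.3e-05 under the scalings. The rank correlation of ratio and coding length was -0.61, and, in alternatives added after the data were seen, -0.61 with 1 curated transcript, -0.61 without exon overlap, -0.60 with thinning and -0.34 with merged exon length. No paired analysis was possible because each group has 1 library, and none could be left out. Depth sets a median counting SD of 0.05 on the log2 scale for the 73 members past 10 CPM. Smaller differences of a single gene were not detectable. Some larger ones still had an interval that includes 1, such as Mrpl16 with a log2 ratio of -0.13.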

Other observations

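The 76 genes are scattered over 17 chromosomes, with 10 on chromosome 11 and 8 on chromosome 17. One pair stands head to head: Mrpl46 and Mrps11 on chromosome 7 run in opposite directions, and their gene models overlap at the starts (Mrpl46 78775236 to 78783531, Mrps11 78783119 to 78792989), so that a large-subunit and a small-subunit gene adjoin. Mrpl46 had 1156 reads in the CREB KO-labelled library and 1333 in the wildtype library, with a ratio of 0.956 (0.883 to 1.03). Mrps11 had 1105 and 1213, with a ratio of 1.004 (0.925 to 1.09). Both intervals include 1, and this pair was picked out after the values were seen.

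Exons of 25 members overlap those of another gene. Their median log2 ratio was -0.01, against -0.0035 for the 51 others.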
